A study of Mus musculus with 8 samples.

Results

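Clec4f, Cd5l and Mpeg1, markers of the macrophages that live in liver, were examined in ribosome footprints of mouse liver. The 3 genes were chosen by gene symbol, with earlier results of the diet comparison in these data known, so their levels are given as a description, with no test. All 3 had a line among the 7500 genes of the deposited table. Livers came from male FVB/N mice placed at weaning on a torula yeast-based selenium-deficient diet and kept there for 6 weeks, either with no selenium added (0 Se, 2 mice) or with 0.1 ppm selenium added as sodium selenite (0.1 Se, 2 mice). Each mouse gave 2 libraries, 8 in all. The table holds 1 mean level per gene over both diets and no level for a single library. Its remaining columns are the authors' own comparison of the diets and were not used here. The levels below are therefore means over both diets with no SD, n or test, and neither a difference between diets nor the depth of a library was examined.

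Kupffer cells are the macrophages of the liver sinusoids, where they clear particles, bacteria and damaged blood cells from portal blood. Clec4f is a C-type lectin receptor that in mice marks Kupffer cells among macrophages. Cd5l, also known as AIM, is a scavenger-receptor protein that tissue macrophages secrete into blood. Mpeg1 encodes perforin-2, a pore-forming protein with which macrophages attack engulfed bacteria. In ribosome profiling, the stretches of mRNA covered by ribosomes are sequenced, so a count over a coding sequence measures translation of that gene in the tissue as a whole. In whole liver, a change in the number of macrophages and a change in footprints per macrophage cannot be told apart.

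The start of each coding sequence is shown because its first codons did not enter the count of a gene. Lower case marks the first 15 codons, which by the stated rule were left out, and capitals mark the next 30 bases, about the length of 1 footprint. The deposited lengths leave out 2 codons more in all than that rule, so the exact base at which counting began is not known. The sequences are those of the GENCODE vM1 transcripts of the mm9 build, read 5′ to 3′ on the coding strand.
Clec4f: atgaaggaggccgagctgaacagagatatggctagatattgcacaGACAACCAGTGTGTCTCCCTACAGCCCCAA
Cd5l: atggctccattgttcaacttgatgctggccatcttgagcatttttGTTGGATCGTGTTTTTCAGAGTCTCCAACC
Mpeg1: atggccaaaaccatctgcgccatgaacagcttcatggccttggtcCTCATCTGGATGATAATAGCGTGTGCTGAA

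Clec4f lies on chromosome 6 (83594536 to 83606181, mm9, minus strand) and is coded in 7 exons. The bases shown for it lie within its first coding exon, at chr6:83605952-83606026. Cd5l lies on chromosome 3 (87161803 to 87174996, plus strand) and is coded in 6 exons. Its first coding exons are short, so that the bases shown come from 3 of them, at chr3:87161924-87161951, chr3:87164798-87164833 and chr3:87169712-87169722. Mpeg1 lies on chromosome 19 (12535269 to 12539774, plus strand) and differs in structure, having 2 exons of which only 1 is coding. The bases shown for it are at chr19:12535670-12535744. The coding sequences, stop codon included, are 1647 bases long in Clec4f, 1059 in Cd5l and 2163 in Mpeg1. The length in the deposited table was 60 bases shorter in each, at 1587, 999 and 2103 bases. It was taken here as the counted part of the coding sequence, which its column name does not state.

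Clec4f had a mean level of 8.09 on the log2 CPM scale, or 272 CPM, where CPM stands for the count of a gene scaled to a library of 1000000. Mpeg1 had 7.63 on the log2 CPM scale, or 198 CPM, and Cd5l had 6.80, or 112 CPM. Longer coding sequences hold more ribosomes at the same density, so levels were compared between genes mainly after division by counted length. In ranks and shares of summed CPM given without that division, longer genes weigh more. Footprint density was 171 CPM per kb in Clec4f, 112 CPM per kb in Cd5l and 94.0 CPM per kb in Mpeg1. Division by length thus exchanged the places of Cd5l and Mpeg1, Mpeg1 being the longest of the 3. Clec4f was 1.53 times as dense as Cd5l and 1.82 times as dense as Mpeg1, and Cd5l was 1.19 times as dense as Mpeg1. No spread between mice is known for these ratios, so it cannot be said whether neighbours in this order differ beyond it.

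All 3 genes lay well above the middle of the table, in which the median density was 11.3 CPM per kb. Clec4f was 15.2 times as dense as that median gene, Cd5l 9.90 times and Mpeg1 8.34 times. In density 603 genes stood above Clec4f, 867 above Cd5l and 988 above Mpeg1. Without division by length it was 385 genes for Clec4f, 863 for Cd5l and 509 for Mpeg1. In percent, 91.9% of listed genes were below Clec4f, 88.4% below Cd5l and 86.8% below Mpeg1. Together the 3 genes held 581 CPM, or 0.0581% of 1000000 CPM. The plot of density against rank shows the 3 genes close together on the curve, above the line of the median.

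**Figure D1:**
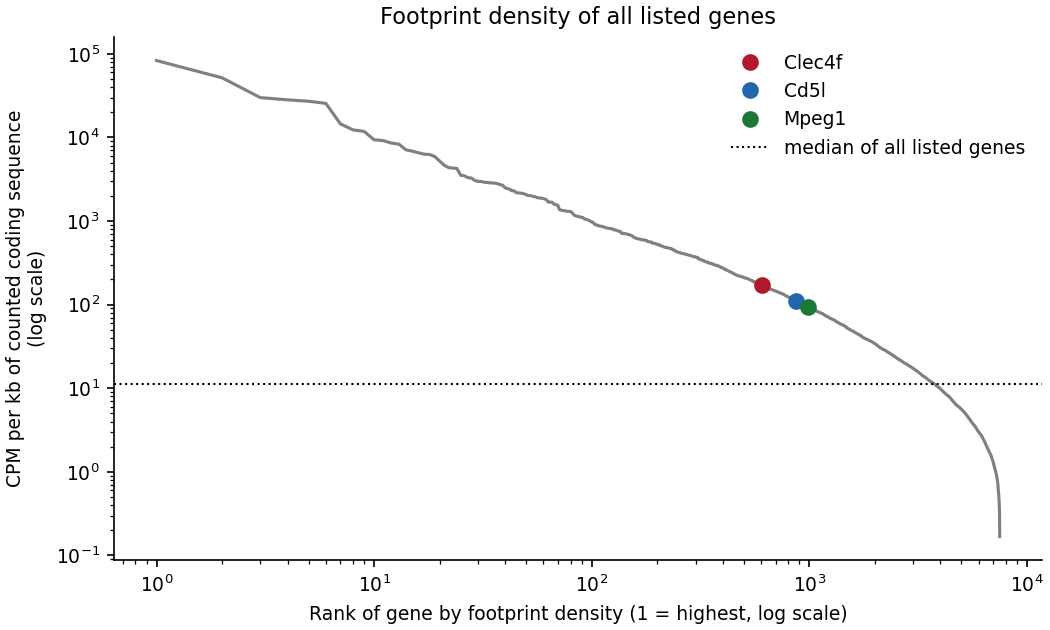
Footprint density (CPM per kb of counted coding sequence, log scale) of the 7500 listed genes against their rank (log scale), as the authors' mean over both diets. The grey line joins the genes, the dotted line is their median of 11.3 CPM per kb, and the coloured points are Clec4f at 171, Cd5l at 112 and Mpeg1 at 94.0 CPM per kb, all above the median.

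Only reads that aligned to a unique place were counted in the study, so near-identical relatives could lower a level. Each 30-base window of the coding sequence without its first 15 and last 3 codons was aligned to all mouse coding transcripts with up to 2 mismatches, the limit of the study. Clec4f had 0 of 1564 windows that also matched another gene. Cd5l had 6 of 976, or 0.615%, all with mismatches, against 4 genes, among them Dmbt1 and Cd163l1, which like Cd5l carry scavenger-receptor domains. Mpeg1 had 332 of 2080, or 16.0%, all against Pfpl, a gene related to it that had no line in the table. Of these, 35 windows were identical in both genes and fell into 4 stretches. The longest stretch, of 43 bases, is shown in capitals because a footprint within it could not be assigned to either gene, with 15 bases of Mpeg1 on each side in lower case. It covers bases 276 to 318 of the Mpeg1 coding sequence.
Mpeg1: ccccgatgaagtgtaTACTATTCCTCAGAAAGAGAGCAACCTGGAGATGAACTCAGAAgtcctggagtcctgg

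With the counted length reduced by the share of windows that matched another gene, an alternative chosen after seeing the data, the density of Mpeg1 was 112 CPM per kb, as was that of Cd5l. This scale treats all 332 shared windows of Mpeg1 as uncounted, though only 35 were identical in Pfpl. Whether reads from the others were dropped is not known, so the value may be too high. Cd5l and Mpeg1 were closer on this scale than per counted length, and the density of Clec4f was 171 CPM per kb on both. As the track of shared windows shows, the windows that Mpeg1 shares lie in blocks along most of its length.

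**Figure D2:**
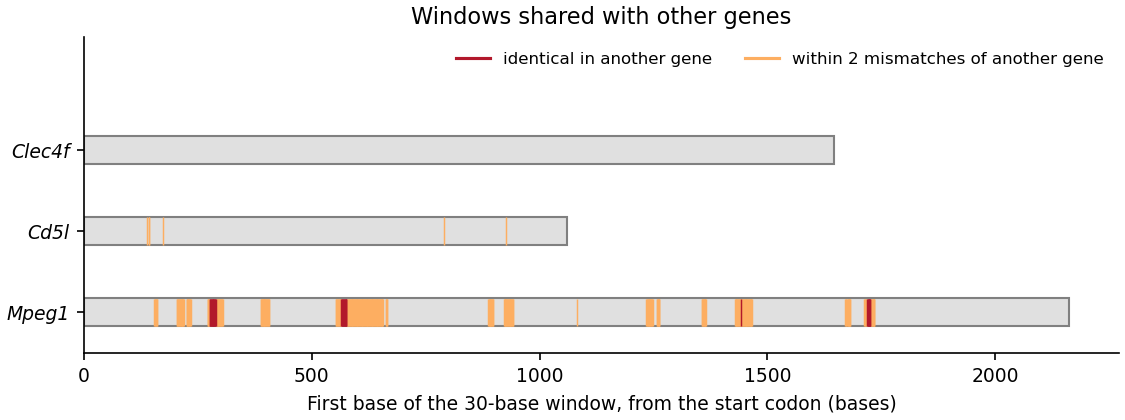
Coding sequences of Clec4f, Cd5l and Mpeg1 as grey bars, drawn to scale in bases from the start codon (x axis). Each coloured line is the first base of a 30-base window that also aligns to another gene, identical (red) or within 2 mismatches (orange), with 0 lines in Clec4f, 6 in Cd5l and 332 in Mpeg1.

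The 3 genes were then placed among other macrophage genes. Of 40 genes of a macrophage list, the 3 included, 33 had a line, and 7 had none, among them Cd68 and Itgam. A gene without a line was not analysed here, and no low level can be read from its absence, since Cps1, a highly abundant liver enzyme, had no line either. Clec4f was the densest of the 33 genes and Cd5l the next, and Mpeg1 had 4 genes above it. The other 30 genes ranged from 0.927 to 109 CPM per kb with a median of 12.9, and 28 of them lay below all 3 genes. Only Lgmn, with 109 CPM per kb, and Ctsc, with 102, lay between Cd5l and Mpeg1. Both encode lysosomal proteases that many cell types make. The 3 genes held 41.0% of the 1417 CPM of the list.

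**Figure D3:**
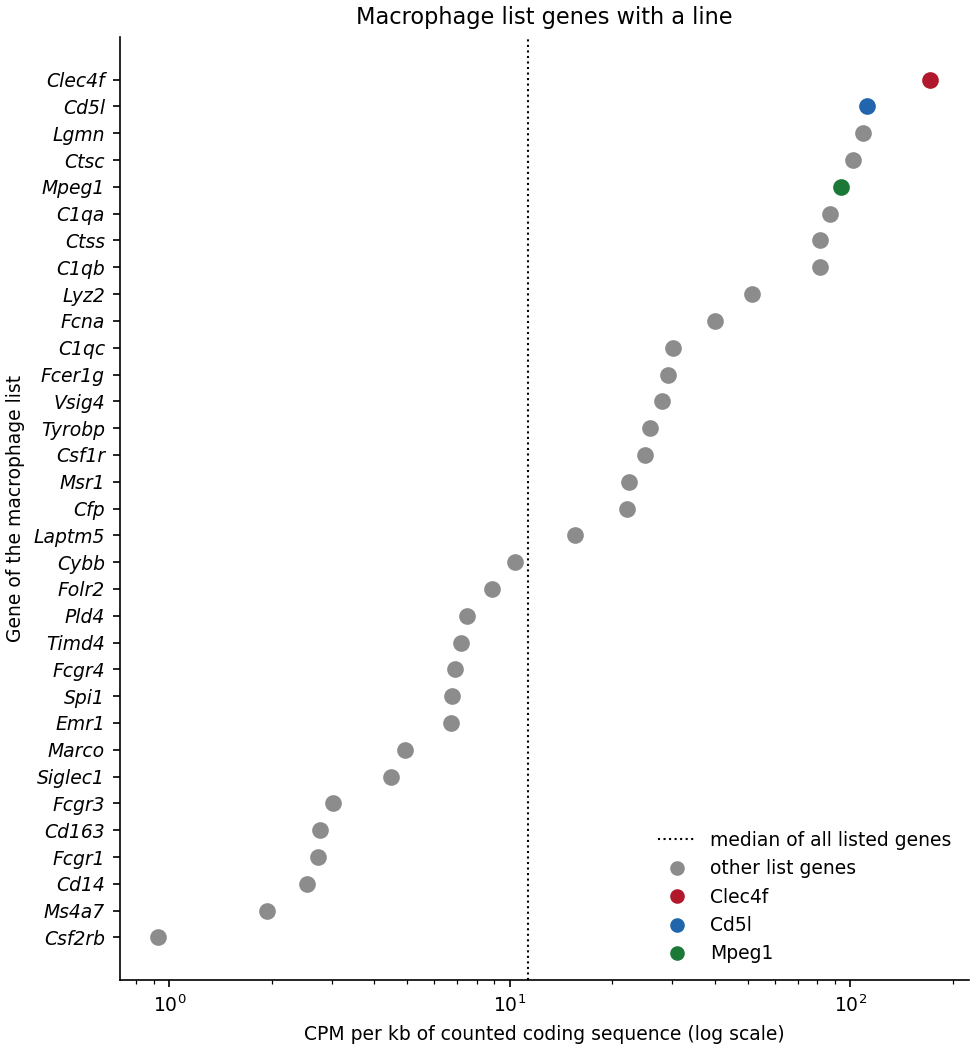
Footprint density (CPM per kb, log scale) of the 33 macrophage list genes with a line, as the authors' mean over both diets, sorted by density, with the 3 genes in colour. Clec4f and Cd5l head the list, Mpeg1 has 4 genes above it, and 18 of the 33 genes lie above the dotted line, the median of all listed genes (11.3 CPM per kb, or 22.7 for those that reached 3 on the log2 CPM scale).

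Several surface proteins of the list, grouped here after their values were seen, had lower densities than the 3 genes. Vsig4, a complement receptor of Kupffer cells, had 28.0 CPM per kb, so that Clec4f was 6.11 times as dense. Timd4, which binds phosphatidylserine on dying cells, had 7.19 CPM per kb, and Clec4f exceeded it 23.8-fold. The scavenger receptors Msr1, Marco and Cd163 had 22.4, 4.92 and 2.78 CPM per kb, and the folate receptor Folr2 had 8.87. Clec4f was 34.8 times as dense as Marco and 61.7 times as dense as Cd163. The receptor for lipopolysaccharide, Cd14, had 2.53 CPM per kb, and the sialic acid receptor Siglec1 had 4.47.

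The macrophage genes nearest to Mpeg1 from below encode secreted or lysosomal proteins. They were C1qa with 87.1 CPM per kb, Ctss with 81.6 and C1qb with 81.3. C1qa, C1qb and C1qc are the 3 chains of complement C1q, and C1qc was lower, with 30.1 CPM per kb. Cfp, which encodes properdin, and Fcna, which encodes ficolin A, had 22.0 and 39.9 CPM per kb. Lyz2, the macrophage lysozyme, had 51.4 CPM per kb, but 75.8% of its windows also matched Lyz1, so its level is uncertain. Likewise the levels of Fcgr3 (3.02 CPM per kb) and Csf2rb (0.927) are uncertain, with 57.1% and 77.3% of windows shared with Fcgr2b and Csf2rb2. Of the 33 genes, 23 had no shared window, and Mpeg1 was 1 of 4 with over 10%.

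Genes of macrophage signalling and identity were also below the 3 genes. The growth factor receptor gene Csf1r had 24.9 CPM per kb, and the adaptor genes Tyrobp and Fcer1g had 25.9 and 29.1. Laptm5 and the oxidase subunit gene Cybb had 15.5 and 10.3 CPM per kb. The transcription factor gene Spi1, listed under its older name Sfpi1, had 6.77 CPM per kb, and Emr1, which encodes the F4/80 antigen, had 6.71. The remaining genes were Pld4 with 7.48 CPM per kb, Fcgr4 with 6.90, Fcgr1 with 2.74 and Ms4a7 with 1.94.

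Marker lists of the other cells of liver give the setting for these levels. The hepatocyte list had lines for 9 of 10 genes, with a median of 9165 CPM per kb, led by Alb (51734), Ttr (28165) and Apoa1 (25548), so defining genes of the labelled tissue were at high levels. The 9 genes held 18.1% of 1000000 CPM, against 0.142% for the 33 macrophage genes. Clec4f was below each of the 9, the lowest being Hnf4a with 209 CPM per kb. The macrophage list had a median of 22.0 CPM per kb, beside 11.3 over all listed genes, with 18 of 33 genes above the latter. The 4998 genes that reached 3 on the log2 CPM scale had a median of 22.7 CPM per kb. The list median was 0.969 times that value, but the list itself was not filtered and kept genes below 3, so this ratio compares unlike sets. Clec4f, Cd5l and Mpeg1 each lay above both background medians. The endothelial list had a median of 21.3 over 19 genes, led by Aqp1, Clec4g and Dnase1l3 with 141, 135 and 116 CPM per kb. Clec4f was thus denser than every gene of the endothelial list, and Cd5l and Mpeg1 were below these 3 genes. The stellate cell list had a median of 11.2 over 14 of 17 genes, and of it only Dcn, with 208 CPM per kb, exceeded Clec4f. Sparc and Bgn followed with 153 and 91.4 CPM per kb.

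Lists of blood cells and bile duct cells had few lines. As in the macrophage list, no low level can be read from a missing line. Genes with near-identical relatives could lose reads to the rule of unique alignment, and shared windows were not examined for these lists. In the neutrophil and monocyte list 1 of 10 genes had a line, S100a9 with 6.55 CPM per kb, and Clec4f was 26.2 times as dense. In the T and NK cell list it was 1 of 11, Cd4 with 1.71 CPM per kb, and in the B cell list 1 of 6, Cd22 with 0.883. The red cell list had lines for 0 of 7 genes. The bile duct list had 4 of 7, with a median of 2.28 CPM per kb, where Spp1 (49.1), Sox9 (2.84) and Krt19 (1.73) were densest. All 3 macrophage genes were above each gene with a line in the 4 of these lists that had any. The neutrophil and monocyte, T and NK cell and B cell lists rest on 1 gene each, so little can be read from this.

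**Figure D4:**
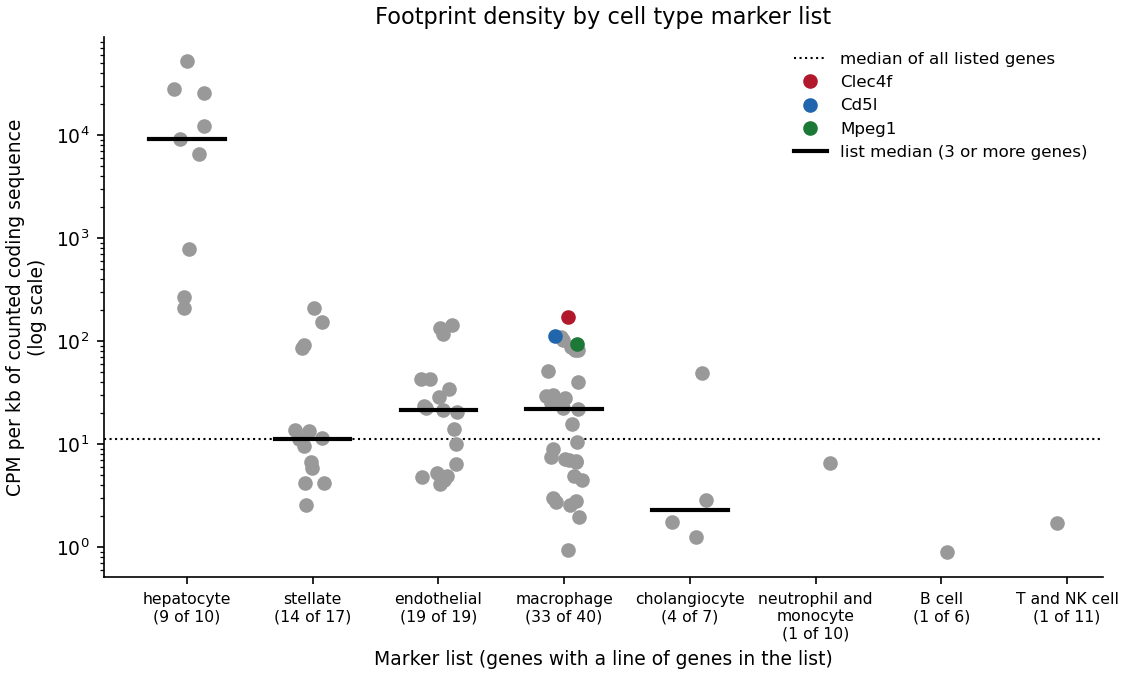
Footprint density (CPM per kb, log scale) of marker genes with a line, 1 point per gene and 1 column per cell type list, as the authors' mean over both diets. Bars are list medians, from 9165 CPM per kb in hepatocytes to 22.0 in macrophages and 2.28 in bile duct cells (cholangiocytes), the dotted line is the median of all listed genes, and Clec4f, Cd5l and Mpeg1 in colour stand near the top of the macrophage column.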

How the data were processed

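According to the study's methods and the labels, footprints of about 30 bases from RNase I digested liver polysomes were sequenced, adapters and ribosomal RNA reads were removed, and reads aligning uniquely with up to 2 mismatches (Bowtie) were counted on the longest RefSeq isoform (mm9), without the first 15 and last 3 codons. The authors used edgeR for genes over 1 CPM in at least 3 samples. No source used here gives tool versions. The log2 CPM values deposited by the authors are means over both diets, which edgeR raises slightly at low levels by a prior count. Their column names no sample, so which libraries entered the means is not stated. The 4 columns of the authors' comparison of the diets (fold change, its log2, p-value and false discovery rate) were not used. The deposited lengths were 60 bases below the longest coding sequence of GENCODE vM1 for 6116 of 7260 genes with the same symbol, 2 codons more than the 18 stated. The listed genes summed to 85.7% of 1000000 CPM. The other 14.3% cannot simply be assigned to genes without a line, since mean levels with a prior count need not sum to 1000000.

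CPM were divided by counted length in kb and ranked (Python 3.11.15, pandas 2.3.3). Windows of 30 bases of the coding sequence without its first 15 and last 3 codons were aligned with bwa 0.7.19, ungapped, same strand, and the alignment and ranking steps were checked on simulated data. Marker lists are described by counts, and by medians from 3 lines upwards. The genes named are the 3 genes, every macrophage list gene with a line and the 3 densest genes of each other list, besides genes named for a shared sequence, Hnf4a as the lowest hepatocyte gene, and genes without a line, which were chosen after their values were seen. Members and lists were chosen with earlier results of these data known. The planned test between diets needed counts per library and was not made. Depth per library is unknown.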

Additional observations from a re-analysis of the deposited data

How the results depend on the processing

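Dividing by the whole coding sequence, 60 bases longer, in place of the counted part gave 165 CPM per kb for Clec4f, 105 for Cd5l and 91.4 for Mpeg1, in the same order. Without division by length the order became Clec4f, Mpeg1, Cd5l, with 385, 509 and 863 genes above, where 603, 988 and 867 stood above them per kb. When ranked among the 4998 genes that reached 3 on the log2 CPM scale, the share below was 87.9% for Clec4f, 82.6% for Cd5l and 80.2% for Mpeg1. Of 30 alternative values, 23 stayed within 1.5 times the reported one, and 7 did not. Of the latter, 2 are the numbers of genes above Clec4f and Mpeg1 without division by length, and 5 are list medians set against this filtered background, whose median is 22.7 CPM per kb. These 5 moved by the same factor, since only the background changed, and adding 60 bases to genes this long could change a density only little. The tally is therefore no measure of robustness. Relative to it the list medians were 0.969 times for macrophages, 0.937 for endothelial cells, 0.494 for stellate cells, 0.100 for bile duct cells and 403 for hepatocytes, in place of 1.95, 1.89, 0.996, 0.202 and 813 times the median of all genes. The lists themselves were not filtered, and the macrophage list kept genes below 3 on the log2 CPM scale, among them Timd4, Marco and Folr2. The ratio of 0.969 therefore sets an unfiltered list against a filtered background. It does not show that the place of the macrophage list depends on the filter. A list filtered in the same way was not compared. Clec4f, Cd5l and Mpeg1 each reached 3 on this scale and lay above both background medians. Alternatives that need counts per library (normalization, count filter, tool, each mouse left out) could not be computed from mean levels. No paired analysis was possible because the levels are means over both diets, and mouse numbers are not shared between diets.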
